A study of Homo sapiens with 24 samples.

Results

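The ZNF genes of chromosome 19 are the protein-coding genes on that chromosome whose symbol is ZNF followed by a digit. There were 250 of them among 1451 protein-coding genes of the chromosome and 20037 in all. The 250 include 4 hyphenated records, such as the readthrough record ZNF816-ZNF321P. They were set against the 1201 other protein-coding genes of chromosome 19, the 267 ZNF genes on other chromosomes and the 18319 remaining genes. Binding was mapped by CUT&RUN, where a nuclease tethered through an antibody releases the DNA around a bound protein for sequencing.

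The 24 libraries were prepared from nuclei of HUDEP-2 cells, an established line of human erythroid progenitors, grown with SCF, EPO, dexamethasone and doxycycline and given no further treatment. Clone T carries TR4, a nuclear receptor, with 3FLAG and 3MYC epitopes at its C terminus. In clone B, BCL11A, a zinc finger repressor of the fetal globin genes, carries 3HA and 3MYC epitopes, and clone TB has both changes. The 9 libraries directed at TR4 (TR4 libraries) were made with the MYC antibody in clone T (MYC_T) and the TR4 antibody in clones T and TB (TR4_T, TR4_TB). The 9 directed at BCL11A (BCL11A libraries) were made with the MYC antibody in clone B (MYC_B) and the HA antibody in clones B and TB (HA_B, HA_TB). The MYC antibody in clone TB (MYC_TB, 3 libraries) can recover both proteins, and IgG gave 1 control library per clone. Each clone is 1 edited line, whether the 3 libraries of a group stem from separate cultures is not in the labels, and p-values therefore measure only the spread between these libraries. The identity of the line was taken from the labels, since no RNA was measured.

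Most ZNF genes of chromosome 19 encode proteins in which an array of zinc fingers reads DNA and a KRAB domain recruits the corepressor TRIM28. TRIM28 in turn brings the methyltransferase SETDB1 and HP1 proteins, which silence many transposable elements. The genes stand in clusters that arose by repeated duplication, so neighbours resemble each other in sequence. Near-identical copies can share reads, and the sources used here do not say how such reads were placed. Of 219 members with a RefSeq promoter window of 300 bases, 9 (4.11%) shared an exact run of 50 bases with the window of another gene elsewhere. Among the genes described below these were ZNF765 and ZNF765-ZNF761, whose windows share such a run with ZNF83.

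The members called for TR4 were ZNF578, ZNF677, ZNF816 and ZNF816-ZNF321P, as described below, and their promoter windows held 1 common run of 11 bases. That run was looked for after their values were seen, so its presence in those 4 genes is no finding. The 30-base windows around every copy in a member's promoter are shown because all 9 members that hold it lie in 1 cluster, from ZNF175 to ZNF331. The capitals mark the run, the letters are RefSeq's on GRCh38.p14, and each is written 5′ to 3′ on the gene's strand.
ZNF880, chr19:52369925-52369954, plus strand: tttcctggaGACCCGGAAGCagattacgtg
ZNF528, chr19:52397851-52397880, plus strand: tttccggtaGACCCGGAAGCcgattgcagg
ZNF578, chr19:52453555-52453584, plus strand: tttcctgaaGACCCGGAAGCcgatcgcgtg
ZNF320, chr19:52897671-52897700, minus strand: attggcataGACCCGGAAGCggatggcagg
ZNF816, chr19:52962858-52962887, minus strand: attggcacaGACCCGGAAGCggatggcgtg
ZNF677, chr19:53254853-53254882, minus strand: gttcctgccGACCCGGAAGCggatctcgcg
ZNF765, chr19:53395141-53395170, plus strand: cttcgcgcaGACCCGGAAGCggacggcgtg
ZNF816-ZNF321P and ZNF765-ZNF761 share the windows of ZNF816 and ZNF765. The run lay close to a RefSeq start in every promoter shown.

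ZNF genes of chromosome 19 had TR4 peaks more often than genes at large, and about as often as BCL11A peaks. A gene was counted in a group when at least 2 of its 3 libraries had a peak within 1 kb of either end of the gene record. By that rule MYC_T had 113 of 250 members (45.2%) against a background of 27.1% of all protein-coding genes. TR4_T had 106 (background 25.5%) and TR4_TB 111 (background 27.9%). MYC_B had 105 (background 44.8%), HA_B 96 (background 42.4%) and HA_TB 101 (background 39.2%). MYC_TB had 131 (background 43.1%). Every TR4 group thus had more members than the BCL11A group beside it, while over all genes the BCL11A groups had more. No IgG library had more than 5 members with a peak. They were ZNF792, ZNF780A, ZNF222, ZNF816 and ZNF816-ZNF321P in clone B and ZNF302 in clone TB.

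Within each library, the share of members with a gene-end peak was 40.4% ± 10.8 in TR4 and 36.8% ± 13.6 in BCL11A libraries (SD, n = 9 each), and the ranges of 22% to 51.2% and 17.2% to 50.4% overlapped. Other chromosome 19 genes had 42.2% ± 7.62 in TR4 and 51.6% ± 6.30 in BCL11A libraries. ZNF genes on other chromosomes had 32.7% ± 10.7 in TR4 and 50.8% ± 14.1 in BCL11A libraries. Divided by the share of ZNF genes on other chromosomes, the members' share was 1.27 ± 0.139 (1.09 to 1.52) in TR4 libraries. In BCL11A libraries that ratio was 0.704 ± 0.0934 (0.574 to 0.801), so no library of one target reached the range of the other. Against other chromosome 19 genes the ratio was 0.942 ± 0.106 (0.755 to 1.07) in TR4 and 0.693 ± 0.196 (0.405 to 0.884) in BCL11A libraries, which overlapped.

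Replicate 3 had the shortest list and the lowest member share in all 7 groups, and the ratios were therefore also read within each replicate number. Among libraries of replicate 3, members over other chromosome 19 genes gave 0.755 to 0.857 in TR4 and 0.405 to 0.489 in BCL11A libraries. For replicate 1 the ratio was 0.976 to 1.07 in TR4 and 0.705 to 0.844 in BCL11A libraries, and for replicate 2 it was 0.934 to 1.03 in TR4 and 0.839 to 0.884 in BCL11A libraries. The ranges of the targets did not overlap within any replicate number.

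**Figure D1:**
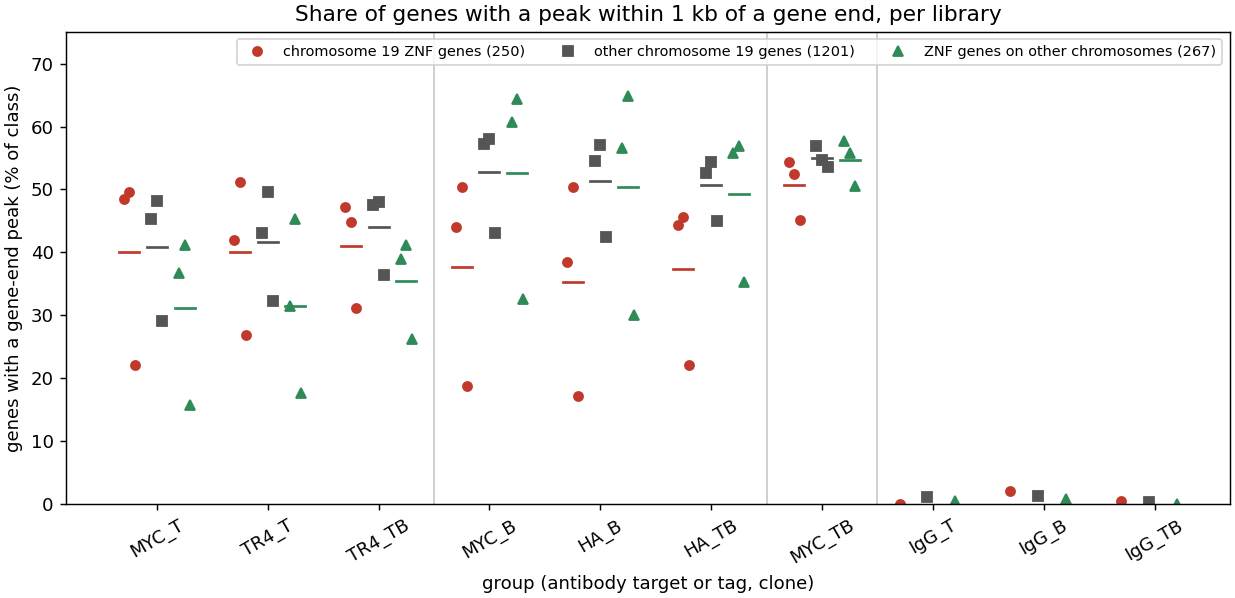
Share of genes (%) with a peak within 1 kb of a gene end in each library (points, replicates 1 to 3 from left to right), with the group mean as a line, for 3 classes of gene. Chromosome 19 ZNF genes lie near the other chromosome 19 genes in TR4 groups and below both other classes in BCL11A groups, and replicate 3 is lowest in every target group.

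TR4 lists held 4621 to 14924 peaks and BCL11A lists 12284 to 31432, so the comparison was repeated on the 4621 strongest peaks of every list, ranked by the authors' q-value. The members' share was then 25.8% ± 2.87 (22% to 30%) in TR4 and 9.69% ± 1.45 (6.80% to 11.6%) in BCL11A libraries (SD, n = 9 each), with no overlap. Other chromosome 19 genes had 32.3% ± 2.39 in TR4 and 32.0% ± 2.16 in BCL11A libraries. ZNF genes on other chromosomes had 18.3% ± 1.57 in TR4 and 14.9% ± 0.999 in BCL11A libraries. The remaining genes had 14.1% ± 0.912 in TR4 and 12.5% ± 0.781 in BCL11A libraries. Among the strongest peaks, the members were the class with the widest gap between targets of these 4. The cut kept the whole list of MYC_T replicate 3 and left out most peaks of every BCL11A list. It matched the number of peaks and not their strength. In MYC_TB the members' share was 19.1% ± 0.924 (SD, n = 3), between the shares of the single targets.

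**Figure D2:**
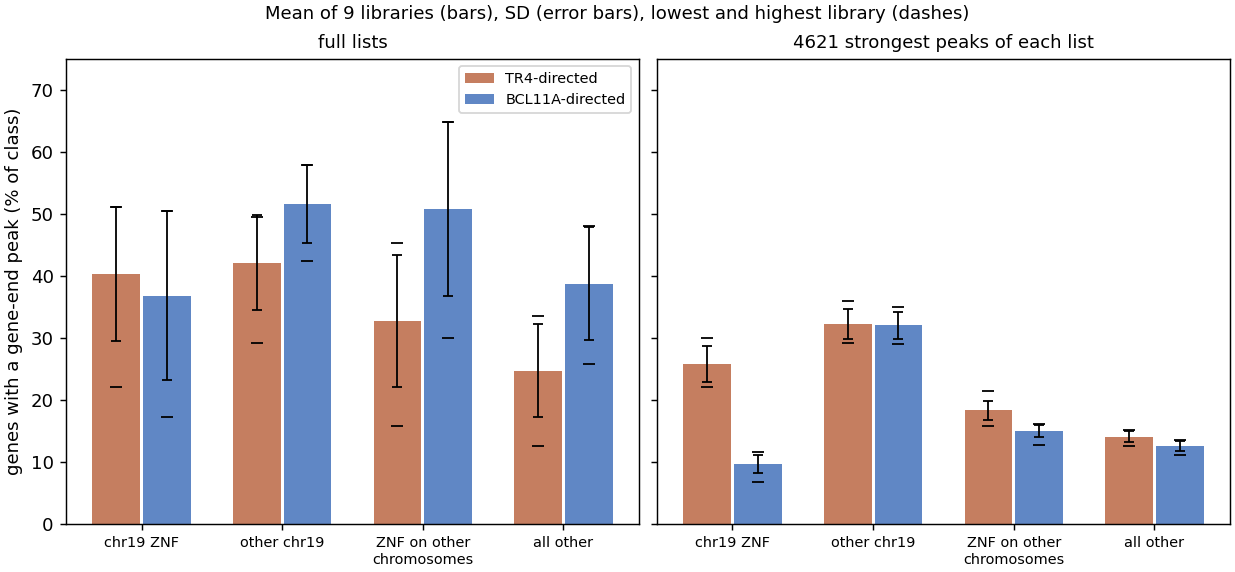
Mean share of genes (%) with a gene-end peak over 9 TR4 and 9 BCL11A libraries for 4 classes of gene, with SD (error bars) and the lowest and highest library (dashes), in full lists (left) and in the 4621 strongest peaks of each list (right). In the right panel chromosome 19 ZNF genes stand at 25.8% for TR4 and 9.69% for BCL11A, while other chromosome 19 genes stand at 32.3% for TR4 and 32.0% for BCL11A.

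Counted gene by gene, a larger share of the tested members had a peak in more TR4 than BCL11A libraries (44.7%) than of the tested genes of the other 3 classes. That share was 8.16% of other chromosome 19 genes, 15.9% of ZNF genes on other chromosomes and 14% of the remaining genes. Members were tested where 4 or more of these 18 libraries had a peak. Of 141 such members, 63 (44.7%) had a peak in more TR4 libraries, 34 in equally many and 44 (31.2%) in more BCL11A libraries. Among the 9563 genes tested in all, 14.1% had more TR4 and 66.7% more BCL11A libraries. Fisher's exact test on the number of libraries (two-sided, Benjamini-Hochberg adjusted over all 9563 genes) called 4 members for TR4, where the background was 0.847% of all genes. It called 1 member for BCL11A, where the background was 10.7%. Over the other chromosome 19 genes it called 1 of 686 for TR4 and 28 for BCL11A, and over ZNF genes on other chromosomes 0 of 170 for TR4 (2 at an unadjusted p under 0.05) and 11 for BCL11A. Without adjustment, p was under 0.05 for 14 members with more TR4 and 10 with more BCL11A libraries. Without the MYC antibody (6 libraries against 6) no gene of any class was called, and 2 members for TR4 and 1 for BCL11A had an unadjusted p under 0.05, as had 83 and 870 of all genes.

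In the 4621 strongest peaks of each list the test called 37 of 80 members (46.3%) for TR4, against a background of 22.3% of 4794 genes tested, and 1 for BCL11A, against 14.6%. The 37 include pairs that share a region: ZNF559 with ZNF559-ZNF177, ZNF790 with ZNF345, and ZNF816 with ZNF816-ZNF321P. The class medians of the difference in libraries were 5 for the members and 0 for all genes. Other chromosome 19 genes had 40 of 505 called for TR4 and 45 for BCL11A. ZNF genes on other chromosomes had 22 of 80 called for TR4 and 10 for BCL11A.

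**Figure D3:**
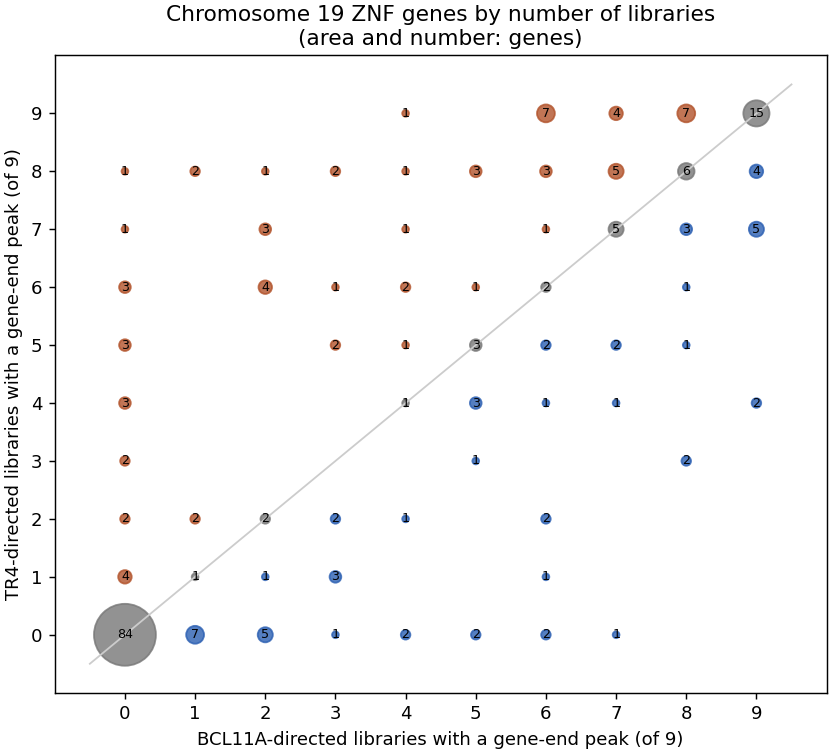
Number of chromosome 19 ZNF genes (area and printed number) by the number of TR4 libraries (vertical axis, of 9) and BCL11A libraries (horizontal axis, of 9) with a gene-end peak in full lists. The largest groups are the 84 genes with none of either and the 15 with all of both. Points above the grey line had more TR4 libraries.

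ZNF578 had a peak in 8 TR4 libraries and in no BCL11A one (Fisher's exact test, p = 0.000411, adjusted p = 0.00717). The authors' fold at its start was 40.2, 44.5 and 7.98 in the 3 MYC_T libraries and 25.6, 49.4 and 11.6 in the TR4_T libraries. In TR4_TB it was 4.99 and 6.10, with no peak in replicate 3, and 1 MYC_TB library had a peak of 6.86. Peaks were listed in all 6 clone T libraries, in 3 of the 6 TR4_TB and MYC_TB libraries and in none of the BCL11A ones. The merged region, chr19:52453331-52453664, covers the run shown above, and the median summit lay 16 bases from it. ZNF677 had a peak in 7 TR4 and 0 BCL11A libraries (Fisher's exact test, p = 0.00226, adjusted p = 0.0222), and its folds had a median of 8.28 in TR4 libraries. They were 6.48 and 11.5 in MYC_T, 8.28, 13.9 and 4.85 in TR4_T, and 13.1 and 6.33 in TR4_TB, and 2 MYC_TB libraries had 8.63 and 10.5. Both TR4 libraries that lacked it, 1 of MYC_T and 1 of TR4_TB, were of replicate 3.

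ZNF816 had a peak in 8 TR4 libraries and in 1 BCL11A library (Fisher's exact test, adjusted p = 0.0292). The folds were 17.3, 17.2 and 12 in MYC_T and 12.2 and 28.5 in TR4_T, with no peak in replicate 3. They were 15.8, 10.8 and 5.56 in TR4_TB and 6.59 in the single HA_B library. All 3 MYC_TB libraries had a peak, with folds of 9.42 to 11. ZNF816-ZNF321P shares this start and region (chr19:52962807-52963063), so the 4 calls stand for 3 promoters. An IgG peak of clone B lay beside it at chr19:52962636-52962720, and no other called member had an IgG peak at its ends.

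The member called for BCL11A was ZNF121, on another stretch of the chromosome. It had a peak in 7 BCL11A libraries and in none of the TR4 ones (Fisher's exact test, adjusted p = 0.0222). Its folds were 17.4 and 13.7 in MYC_B, 6.51 and 10.3 in HA_B, and 9.85, 8.72 and 6.00 in HA_TB, and all 3 MYC_TB libraries had a peak of 7.67 to 11.9. No TR4 library reached it, and MYC_B and HA_B lacked it in replicate 3. Just short of the threshold, ZNF20 and ZNF583 had 0 TR4 against 6 BCL11A libraries, and ZNF471, ZNF528 and ZNF880 had 6 against 0 (Fisher's exact test, adjusted p = 0.0556 for each). In the 4621 strongest peaks ZNF121 had no peak in any of the 18 libraries and ZNF677 had one in 2 TR4 and 0 BCL11A libraries, so neither was tested there. ZNF578 (6 TR4 and 0 BCL11A libraries, adjusted p = 0.0260 by Fisher's exact test) and ZNF816 (7 TR4 and 0 BCL11A libraries, adjusted p = 0.00876) were called for TR4 in that setting too.

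**Figure D4:**
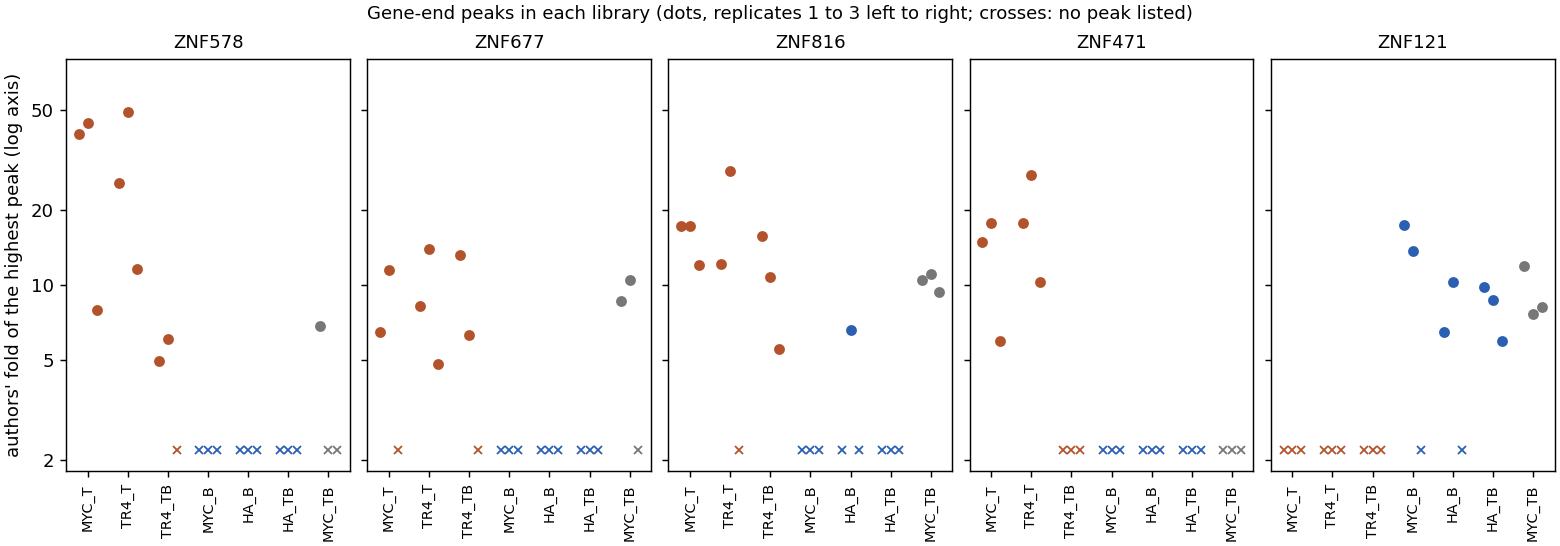
The authors' fold enrichment (log axis) of the highest gene-end peak in each target library for 5 named members, with replicates 1 to 3 from left to right in each group and crosses where no peak was listed. ZNF578, ZNF677 and ZNF816 have dots in TR4 groups, ZNF471 has dots in the 2 clone T groups only, and ZNF121 has dots in BCL11A and MYC_TB groups.

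The upstream sequences of ZNF578 and ZNF121 are shown as the pair with the lowest adjusted p in each direction. They are the 250 bases before the RefSeq start on GRCh38.p14, on the gene's strand, and the capitals mark CCGGAAG and TGACCA on either strand.
ZNF578, chr19:52453303-52453552, plus strand: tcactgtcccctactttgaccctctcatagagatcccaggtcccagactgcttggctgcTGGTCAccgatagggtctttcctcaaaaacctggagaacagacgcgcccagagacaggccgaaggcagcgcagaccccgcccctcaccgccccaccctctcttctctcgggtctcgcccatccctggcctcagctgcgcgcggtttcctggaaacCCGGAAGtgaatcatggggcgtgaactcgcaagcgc
ZNF121, chr19:9584505-9584754, minus strand: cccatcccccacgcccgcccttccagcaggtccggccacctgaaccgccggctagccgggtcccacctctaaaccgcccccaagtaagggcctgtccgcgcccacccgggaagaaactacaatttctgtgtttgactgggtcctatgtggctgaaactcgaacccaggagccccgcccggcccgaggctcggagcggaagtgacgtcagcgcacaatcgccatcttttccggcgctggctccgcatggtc
ZNF578 holds 1 copy of each in this stretch, and ZNF121 holds neither. TGACCA is the letters that BCL11A is known to read, and the BCL11A peaks of this pair were at the gene without it in this stretch. The BCL11A region of ZNF121, chr19:9584316-9584668, also covers bases after the start, which are not shown. This is a description of 2 genes.

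AGGTCA, the half-site of nuclear receptors such as TR4, was in the 300-base window (250 before and 50 after the start, both strands) of 33 of 219 members (15.1%), against 15.4% of other chromosome 19 genes, 9.63% of ZNF genes on other chromosomes and 15.2% of all genes with a window. Its direct repeat with 1 base between, AGGTCANAGGTCA, was in no member's window and in 0.0316% of all. TGACCA was in 18 members (8.22%), against 15.1% of other chromosome 19 genes, 10.6% of ZNF genes on other chromosomes and 12.1% of all. It was in 4 of 12 members with a peak in at least 4 more BCL11A libraries and in 1 of 23 with at least 4 more TR4 libraries. Among the remaining genes these shares were 11.1% of 2776 with more BCL11A and 8.88% of 259 with more TR4 libraries. Of 59 members with a peak in 7 to 9 BCL11A libraries 4 held it (6.78%), as did 6 of 69 members with no gene-end peak in the 18 libraries (8.70%).

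CCGGAAG, the core of sites for ETS-family factors, was searched after the promoters had been read. It was in 105 of 219 members (47.9%), against 15.9% of other chromosome 19 genes, 35.3% of ZNF genes on other chromosomes and 16.5% of all. It overlaps the run of 11 bases, which contains it. The core was in 15 of 23 members with at least 4 more TR4 libraries, a count that includes the 4 genes the run was read from, and in 11 of 19 (57.9%) without them. It was in 5 of 12 with at least 4 more BCL11A libraries and in 31 of 69 members with no gene-end peak in the 18 libraries. In genes outside the ZNF classes and chromosome 19, it was in 46.3% of 259 with at least 4 more TR4 libraries and 18% of 2776 with at least 4 more BCL11A ones. By the same split it was in 0 of 9 and 14.1% of 99 other chromosome 19 genes. For ZNF genes on other chromosomes it was in 3 of 5 and 24 of 53. Of members with a peak in 7 to 9 TR4 libraries, 37 of 73 (50.7%) held it, as did 39 of 88 (44.3%) with none.

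The run of 11 bases was in 9 members (4.11%) and in 0.347% of all windows. Peaks within 1 kb of each copy were counted after these values were seen, because the copies of ZNF880 and ZNF320 lie 3067 and 6620 bases inside their gene records, where the end windows do not reach. Every copy in a member had TR4 peaks beside it, in 6 to 8 libraries. For the 4 genes the run was read from, this was fixed by their choice. Among the remaining genes, 41 held the run, of which 31 had a gene-end peak in 7 to 9 TR4 libraries and 5 in none. Of the same 41, 20 had one in 7 to 9 BCL11A libraries and 3 in none. The run was in 1.13% of 2751 remaining genes with 7 to 9 TR4 libraries. It was in 0.417% of 4793 with 7 to 9 BCL11A libraries. Of 3 other chromosome 19 genes with the run, 2 had a gene-end peak in 7 to 9 TR4 libraries and 1 in none, and the BCL11A counts were also 2 and 1. ZNF880 had a peak beside its copy in 6 TR4 libraries, with folds of 7.89 to 14.8, and no BCL11A library had one. Its gene-end count of 6 is that of the ZNF528 peak, which lies beside the end of its record. ZNF528 had a peak at its start in 6 TR4 libraries, with folds of 5.16 to 22.9, and in no BCL11A library, and its median summit lay 40 bases from the run. ZNF320 had no gene-end peak but a peak beside its copy in 7 TR4 libraries (folds 5.91 to 28.3) and 5 BCL11A libraries (folds 4.52 to 8.42). ZNF765 had a peak in 6 TR4 libraries (folds 5.08 to 10.2) and 4 BCL11A ones (folds 3.66 to 8.57). BCL11A peaks thus lay beside some copies and not others.

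The members' counts leaned to TR4 in some clusters and to BCL11A in others. Parting the members wherever 1 Mb or more lay between neighbours gave 16 clusters. The cluster from ZNF175 to ZNF331 (chr19:51571283-53580269, 41 members) had 26 members in more TR4 libraries and 3 in more BCL11A ones. Its members had a peak in 4.32 TR4 and 2.07 BCL11A libraries on average. All 4 members called for TR4 in full lists lay there. The 14 other protein-coding genes of that stretch had a peak in 0.786 TR4 and 0.643 BCL11A libraries on average, and 12 of them had no target peak.

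The cluster nearest the chromosome's end, from ZNF628 to ZNF446 (chr19:55476617-58489533, 60 members), leaned the other way, with 11 members in more TR4 and 25 in more BCL11A libraries. Its members averaged 4.38 TR4 and 4.87 BCL11A libraries. More BCL11A libraries is also the direction of genes at large in full lists. Among the 9563 genes tested, 14.1% had more TR4 and 66.7% more BCL11A libraries. The cluster counts include members that were not tested. In the cluster from ZNF565 to ZNF573 (26 members), 10 had more TR4 and 1 had more BCL11A libraries, with means of 4.35 TR4 and 3.04 BCL11A libraries. These clusters were not tested against each other.

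In the 4621 strongest peaks, the lean of the end cluster turned. There 22 of its 60 members had more TR4 and 6 more BCL11A libraries, and 8 were called for TR4. In the same setting the ZNF175 to ZNF331 cluster had 22 members in more TR4 libraries and 0 in more BCL11A ones, with means of 2.46 TR4 and 0.0732 BCL11A libraries and 10 called for TR4. The direction was the same in both settings for that cluster and opposite for the end cluster.

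**Figure D5:**
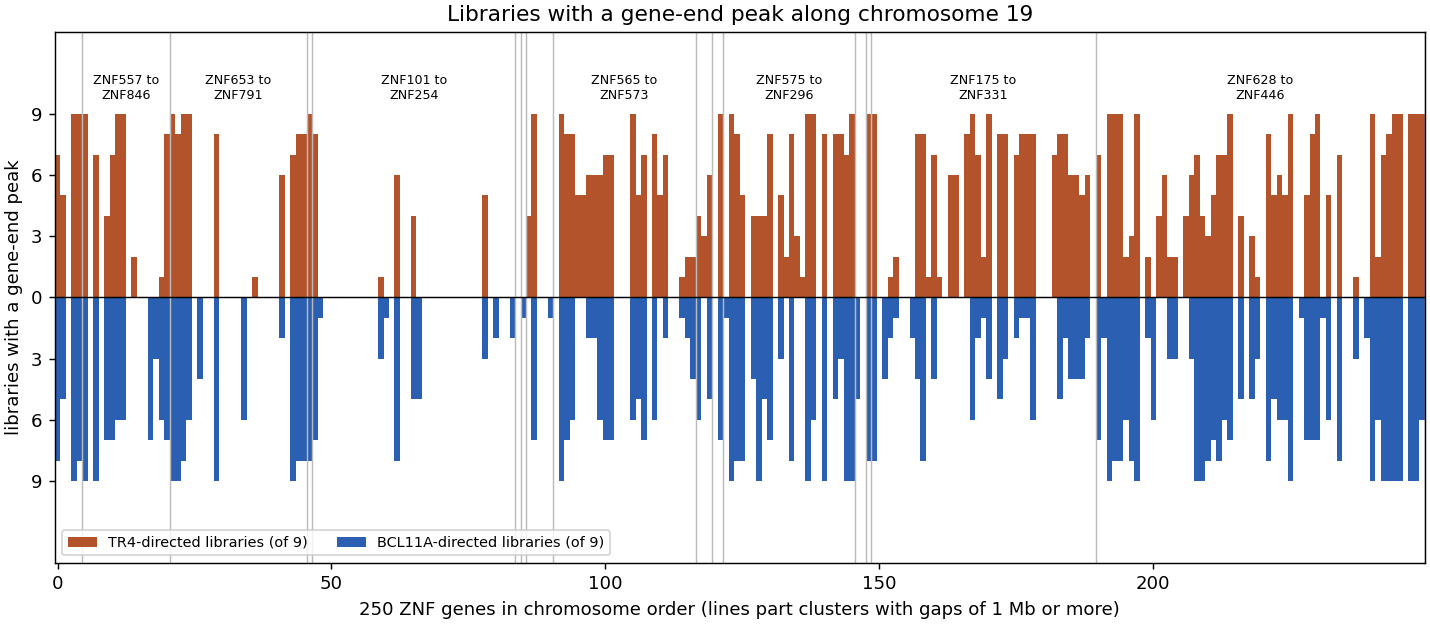
Number of libraries with a gene-end peak for each of the 250 members in chromosome order, with TR4 libraries upward and BCL11A libraries downward (of 9 each) in full lists. Grey lines part clusters, the larger of which are named by their first and last member. The stretch from ZNF101 to ZNF254 is nearly empty, and the bars of ZNF175 to ZNF331 are longer upward.

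A cluster with few peaks ran from ZNF101 to ZNF254 (chr19:19668153-24129968, 37 members). There 26 members had no gene-end peak in any target library, and the mean was 0.649 TR4 and 1.00 BCL11A libraries. ZNF101, at its edge, had a peak in 8 TR4 and 7 BCL11A libraries. ZNF91 and ZNF93, which silence SVA and LINE-1 elements in primates, had no gene-end peak in any library. Gene activity was not measured, so whether these genes were active in HUDEP-2 was not tested.

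Some members had TR4 peaks in 1 clone and none in another. ZNF471 had a peak in all 6 target libraries of clone T, with folds of 14.9, 17.7 and 5.98 in MYC_T and 17.7, 27.4 and 10.3 in TR4_T. Neither TR4_TB, MYC_TB nor any BCL11A library had one. By a rule set after these values were seen, 101 members showed peaks in 4 or more of the 6 clone T libraries, and 6 of them (5.94%) had none in the 6 libraries of TR4_TB and MYC_TB. These were ZNF443, ZNF529, ZNF382, ZNF667, ZNF471 and ZNF835, and ZNF529 and ZNF382 share 1 region. The same held for 0 of 489 other chromosome 19 genes, 1 of 77 ZNF genes on other chromosomes and 16 of 4011 remaining genes (0.399%). Clones T and TB are 1 line each and differ in the BCL11A tag as well, so clone and tag cannot be told apart. The other way round, 5 of 113 members (4.42%) with at least 4 libraries of TR4_TB and MYC_TB had none in clone T, against 2.24% of other chromosome 19 genes, 5.41% of ZNF genes on other chromosomes and 6.12% of the remaining genes. They were ZNF571, ZNF607, ZNF573, ZNF581 and ZNF582. MYC_TB can recover BCL11A too, so these counts are not of TR4 peaks alone. TR4_TB had a peak in 1 library for ZNF571 and in 2 libraries for each of the others. In the order given, the genes had a peak in 1, 2, 4, 6 and 2 BCL11A libraries.

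At the other extreme, 15 members (6%) had a gene-end peak in all 21 target libraries, against 23.1% of other chromosome 19 genes and 5.99% of ZNF genes on other chromosomes. ZNF274, whose protein directs histone H3 lysine 9 methylation to other ZNF genes, was among them. Its main region, chr19:58182803-58183485, had folds of 6.74 to 27.0 in TR4 and 11.5 to 40.5 in BCL11A libraries. ZNF146, which encodes zinc fingers without a KRAB domain, had 13.8 to 29.9 in TR4 and 16.1 to 47.0 in BCL11A libraries. ZNF57 had 11.2 to 57.3 in TR4 and 19.7 to 97.6 in BCL11A libraries. Folds are the authors' own values within each list, and no difference between lists is read from them.

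Other members with known roles lay between. ZNF224, a KRAB repressor, had a peak in 8 libraries of each target. ZNF417 and ZNF587, which silence HERV-K elements, had 7 and 5 TR4 and 8 and 6 BCL11A libraries. ZNF331, an imprinted gene, had none at its ends, but its record held a peak in 9 TR4 and 6 BCL11A libraries. Between ZNF324 and ZNF446 a region (chr19:58475413-58476428) had folds of 45.3 to 277 in 9 TR4 libraries and 6.62 to 20.8 in 6 BCL11A ones. At ZNF302 a region (chr19:34676970-34677785) was present in all 18 libraries, with 29.7 to 126 in TR4 and 6.84 to 22.4 in BCL11A lists, but it lies mostly outside the window and so counted at the gene end in 4 TR4 and 0 BCL11A libraries.

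Among members called only in the 4621 strongest peaks, ZNF808, ZNF227 and ZNF17 had 9 TR4 against 0 BCL11A libraries there (Fisher's exact test, adjusted p = 0.000337 for each). They were picked after their values were seen, as was ZNF528 above. In full lists ZNF808 and ZNF227 had 9 TR4 and 6 BCL11A libraries each, and ZNF17 had 9 TR4 and 7 BCL11A libraries. The folds near the start of ZNF808 were 5.03 to 40.6 with a median of 14.2 in TR4 lists and 4.70 to 11.2 with a median of 8.12 in BCL11A lists. The choice of these genes fixes that their BCL11A peaks lie outside the strongest ones. ZNF221 was the 1 member called for BCL11A in that setting, with 1 TR4 and 9 BCL11A libraries (Fisher's exact test, adjusted p = 0.00212). In full lists it had 4 TR4 and 9 BCL11A libraries, and its BCL11A folds were 9.48 to 31.1.

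Peaks at the members stood at their starts. Of 219 members with a known strand, 41.0% ± 11.2 in TR4 and 37.9% ± 13.8 in BCL11A libraries carried one near the 5′ end, within 1 kb (SD, n = 9 each). At the 3′ end the share was 1.12% ± 0.564 in TR4 and 1.01% ± 0.549 in BCL11A libraries. At the 3′ end other chromosome 19 genes had 10.1% ± 2.53 in TR4 and 15% ± 3.22 in BCL11A libraries. ZNF genes on other chromosomes had 0.714% ± 0.692 in TR4 and 3.67% ± 1.08 in BCL11A libraries, and the remaining genes 2.06% ± 0.838 in TR4 and 4.43% ± 1.31 in BCL11A libraries. Counting every RefSeq start, also those inside the record, the members' share was 48.7% ± 11.7 in TR4 and 44.9% ± 15.7 in BCL11A libraries, against 42.9% in TR4 and 51.7% in BCL11A libraries for other chromosome 19 genes. Of the members' gene-end summits, 79.5% of 815 in TR4 and 79.97% of 749 in BCL11A libraries lay within 250 bases of the start. Their medians were 71 and 67 bases upstream. For other chromosome 19 genes the shares were 56.4% of 3913 for TR4 and 55.2% of 4744 for BCL11A. These totals include summits more than 1 kb from the start, and other chromosome 19 genes had more 3′ peaks. The spread around the start alone was therefore not compared. The members' peaks were of middle strength in their lists, with a median fold percentile of 61.0 ± 8.50 in TR4 and 60.1 ± 3.64 in BCL11A libraries. Other chromosome 19 genes had 74.0 ± 6.13 in TR4 and 83.6 ± 5.19 in BCL11A libraries. ZNF genes on other chromosomes had 60.2 ± 1.95 in TR4 and 63.9 ± 4.24 in BCL11A libraries. The remaining genes had 61.7 ± 1.85 in TR4 and 67.3 ± 4.18 in BCL11A libraries, so in TR4 libraries the members were near both of these classes.

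Within the whole gene record the picture was like that at gene ends. Members with a peak in at least 2 of 3 libraries numbered 135 in MYC_T (background 33.8%), 131 in TR4_T (30.8%) and 131 in TR4_TB (33.6%). They numbered 131 in MYC_B (54.2%), 118 in HA_B (51.3%), 128 in HA_TB (49.6%) and 156 in MYC_TB (52.6%). Fisher's exact test over 11762 genes called 3 members for TR4 (background 0.553%) and 1 for BCL11A (background 11%). In all, 83 members (33.2%) had no gene-end peak in any target library and 47 had none in the record. Without a gene-end peak were 33.7% of other chromosome 19 genes, 24.3% of ZNF genes on other chromosomes and 42.4% of the remaining genes.

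Of the genes counted for TR4, a smaller share was also counted for BCL11A among the members than over all genes. Through the MYC epitope 84 members were in both MYC_T and MYC_B, which is 74.3% of the TR4 members and 80% of the BCL11A members. Over all genes these shares were 93.1% and 56.4%. Inside clone TB, TR4_TB and HA_TB shared 86 members, or 77.5% of the TR4 and 85.1% of the BCL11A members, against 90.3% and 64.2% over all genes. In that clone 25 members had TR4_TB alone and 15 HA_TB alone, where over all genes 544 had TR4_TB alone and 2817 HA_TB alone. Those libraries come from 1 clone. The MYC antibody can also bind the cells' own MYC protein, whose part in the MYC libraries was not tested, and the TR4_TB and HA_TB counts use no MYC library.

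Genes of the KRAB silencing pathway were counted beside the members. Of 14 corepressor genes, 13 were tested, and Fisher's exact test called 0 for either target, also at an unadjusted p under 0.05. With 0.847% of all genes called for TR4 and 10.7% for BCL11A, so short a list says little about the pathway. TRIM28, SETDB1 and MPHOSPH8, a subunit of the HUSH silencing complex, had a gene-end peak in 9 libraries of each target. The HUSH genes TASOR and PPHLN1 had 0 and 5 TR4 against 4 and 9 BCL11A libraries (Fisher's exact test, adjusted p = 0.229 for each).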

How the data were processed

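Peak lists of 24 CUT&RUN libraries on GRCh38 were used. The submitters' processing notes name Trimmomatic, Bowtie2, Picard, SAMtools and MACS2 2.1.4, without saying in the sources used here what each did. Every library has its own deposited peak list. For a peak the authors' fold over background (a ratio on the linear scale), its −log10 q-value and its summit position were used as deposited. Read depth is unknown, and list lengths (4621 to 31432 target peaks, 2036 to 4828 IgG peaks) are the nearest value.

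Gene records, strands and promoters came from RefSeq tables of GRCh38.p14. Peaks overlapping an IgG peak were left out of target lists. A gene had a peak when any base of one lay within 1 kb of either end. Genes with a peak in at least 4 of 18 libraries entered Fisher's exact test (two-sided, scipy 1.17.1), adjusted by Benjamini-Hochberg at 0.05 over all genes, and the test was tried on simulated lists. The members, the lists and the rule for named genes were chosen with earlier results of these data known. Named genes were the 12 members in the most target libraries, those called, the 5 with the largest difference each way, up to 5 with IgG peaks, 8 with known roles and the corepressor genes. Others are said to be chosen afterwards. Protein domains and zinc finger counts were not analysed here. Alternatives changed the window, the q-value minimum, list length, IgG filter, libraries and gene sets.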

Additional observations from a re-analysis of the deposited data

How the results depend on the processing

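Limits come first from depth, which is unknown, and from list length, which differs between targets and is shortest in replicate 3. With the 4621 strongest peaks of each list, members counted in MYC_T, TR4_T, TR4_TB, MYC_B, HA_B, HA_TB and MYC_TB numbered 60, 67, 69, 26, 22, 24 and 46 at gene ends and 78, 85, 86, 35, 28, 31 and 62 in records. Members called for TR4 numbered 37 at ends and 45 in records, and all genes called for TR4 numbered 1068 and 1205. Members tested with more BCL11A libraries numbered 10. In the clusters ZNF175 to ZNF331 and ZNF628 to ZNF446 the tested members with more TR4 libraries numbered 13 and 15, and those with more BCL11A libraries 0 and 4. The ratio of members to other chromosome 19 genes was 0.798 in TR4 and 0.302 in BCL11A libraries. Fewer peaks enter by construction.

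With a peak needed in all 3 libraries, the counts at ends were 55, 63 and 73 for MYC_T, TR4_T and TR4_TB and 45, 40 and 54 for MYC_B, HA_B and HA_TB. In records they were 72 and 86 for MYC_T and TR4_T and 61, 54 and 73 for the same BCL11A groups. With 1 library left out and both others needed, the ranges at ends were 55 to 113 (MYC_T), 63 to 102 (TR4_T), 74 to 106 (TR4_TB), 45 to 103 (MYC_B), 40 to 94 (HA_B), 54 to 100 (HA_TB) and 104 to 123 (MYC_TB). In records they were 72 to 135, 86 to 127, 95 to 126, 61 to 129, 54 to 116, 73 to 128 and 130 to 149 in the same order. The low values are those that keep replicate 3, whose list is the shortest.

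With −log10 q of at least 5, 8 members were called for TR4 and 3 for BCL11A, both at ends and in records. All genes called for TR4 then numbered 174 at ends and 173 in records, and for BCL11A 1952 in records. Leaving out 1 library gave 4 to 9 members called for TR4 and 1 to 7 for BCL11A at ends (9 without TR4_TB replicate 1 or 2, 7 without HA_TB replicate 3) and 3 to 7 and 1 to 7 in records. All genes called ranged from 82 to 131 for TR4 and 1033 to 1869 for BCL11A at ends, and 66 to 104 and 1296 to 2237 in records. Without the MYC antibody 0 members and 0 genes were called in either direction, at ends or in records. Tested members with more BCL11A libraries then numbered 29 over all clusters and 0 in ZNF175 to ZNF331, those with more TR4 libraries 7 in ZNF628 to ZNF446, and ZNF578, ZNF677 and ZNF121 had an adjusted p of 0.136 by Fisher's exact test. Leaving out the MYC antibody also leaves 6 libraries a target instead of 9. These changes cannot be told apart, and the cause was not tested. With every gene in at least 1 library tested, 3 members of ZNF175 to ZNF331 had more BCL11A libraries. The direction and cluster counts were tried after the data were seen.

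Replicate numbers are not said to pair libraries. Same-numbered TR4 and BCL11A libraries had correlations of −0.0114 to 0.197 in their deviations from group means, and 13 of 18 libraries correlated best with their own number. With the replicate block, 6 members were called for TR4 and 2 for BCL11A at ends, and 2 for BCL11A in records. The members called beyond those of the unblocked test were ZNF528 and ZNF880 for TR4 and ZNF583 for BCL11A (adjusted p = 0.0379 by the stratified exact test). Of 285 repeats over 27 named members, 1 changed sign (ZNF587, without the MYC antibody), and none did so while called.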
